A study of Mus musculus with 36 samples.

Results

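Prl2c2, which encodes a proliferin, and U90926, a short transcript of uncertain coding status, are the genes described here, 2 of the 26400 gene rows of a count table of mouse cells. Both were chosen by their own counts, for a large fall in C166 cytoplasm at 24h in hypoxia, contractile genes aside, although other genes fell further there. The levels in that cytoplasm are therefore given as a description, with no test, and tests are given for the other libraries. C166 is an endothelial line derived from mouse yolk sac. C1.1 is 1 clone made from it by CRISPR removal of 1 copy of the mmu-miR-466c hairpin, whose cluster holds other copies. The effect of the deletion and differences that came with the clone therefore cannot be told apart. Both lines were kept in normoxia or in 1% oxygen for 2h or 24h and were split into nucleus and cytoplasm. This gave 12 groups of 3 libraries of RNA depleted of ribosomal RNA. The C166 nuclei may thus come from the same cultures as the cytoplasm that chose the genes. Tests that use C166 nuclei may therefore not be independent of the choice.

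Proliferins are secreted hormones of the prolactin family. Trophoblast giant cells of the mouse placenta make them in large amounts, growth factors induce them in cultured mouse fibroblasts, and they act on endothelial cells as angiogenic factors through the IGF2/mannose-6-phosphate receptor. The proliferin promoter is a classic case of joint control by AP-1, the Fos and Jun family of transcription factors, and by the glucocorticoid receptor. U90926 has been studied in mouse cells as a long noncoding RNA, one that holds back the formation of fat cells and that is induced in activated macrophages.

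Total counts ran from 20745543 to 28667821 in the 18 cytoplasmic libraries and from 15314724 to 24940907 in the 18 nuclear libraries. Replicate 1 of C166 cytoplasm in normoxia had counts in 11903 genes, against 14879 to 19736 in the other 35 libraries. Whether the 3 libraries of a group are independent cultures is not given in the labels, and the p-values speak only for the variation among these libraries. The 7 endothelial markers with a row added up to 0.701 to 5.08 CPM, a count relative to the scaled size of its library. Cdh5 and Tie1 were at 0 in 11 of the 12 groups and Kdr was at 0 in 8, so the endothelial label is not borne out by its defining markers. The 8 markers of smooth muscle and mesenchyme added up to 1028 to 1907 CPM in C1.1 cytoplasm, 3096 to 5119 CPM in C1.1 nucleus, 1665 to 6340 CPM in C166 cytoplasm and 6242 to 9555 CPM in C166 nucleus. Of the 6 trophoblast markers with a row, only the imprinted gene Peg10 was above 0.204 CPM in any group, and the 5 macrophage markers added up to at most 13.2 CPM. In bulk RNA, fewer cells that make a transcript and less of it in each cell cannot be told apart.

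Prl2c2 (ENSMUSG00000079092.4) lies on the minus strand of chromosome 13, from 12996125 to 13005383 in GRCm38, and its main transcript of 842 bases has 5 exons. Prl2c3 lies 196045 bases away on one side, and Prl2c5 177331 bases away on the other. The coding sequence of Prl2c3 differs from that of Prl2c2 at 3 of 672 positions, and that of Prl2c5 at 20 of 666 aligned positions. Of the 793 words of 50 bases in the Prl2c2 transcript, a length equal to that of 1 read, 635 (80.1%) also occur in Prl2c3, 147 (18.5%) in Prl2c5 and 710 (89.5%) in at least 1 of Prl2c3, Prl2c5 and Prl2c1. The following stretches of coding sequence, from GENCODE vM21 transcripts, show what such reads look like. The first is the same in Prl2c2, Prl2c3 and Prl2c5, so a read from it, taken without the read of its other end, could come from any of them.
Prl2c2, chr13:13002260-13002309, minus strand: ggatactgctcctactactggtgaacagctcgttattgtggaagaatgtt
Prl2c3, chr13:12796957-12797006, minus strand: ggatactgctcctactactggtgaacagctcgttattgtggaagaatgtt
Prl2c5, chr13:13185790-13185839, plus strand: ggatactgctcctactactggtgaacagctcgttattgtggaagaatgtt
The second, printed because it separates the copies best, holds 4 positions where they differ, in capitals.
Prl2c2, chr13:12997418-12997467, minus strand: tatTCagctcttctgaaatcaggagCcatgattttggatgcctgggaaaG
Prl2c3, chr13:12792125-12792174, minus strand: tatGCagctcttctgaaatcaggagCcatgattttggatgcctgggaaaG
Prl2c5, chr13:13190586-13190635, plus strand: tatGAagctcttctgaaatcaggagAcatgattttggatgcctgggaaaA

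U90926 (ENSMUSG00000029409.7) lies on the minus strand of chromosome 5, from 92209893 to 92215408, with a main transcript of 524 bases in 5 exons. GENCODE annotates it as protein coding, with 87 codons, and RefSeq as a long noncoding RNA. No other GENCODE gene overlaps it or Prl2c2, so neither shares its position with an antisense gene. The 250 bases before the RefSeq start (GRCm38.p6) of U90926 and of the proliferin copies Prl2c3 and Prl2c5 are printed because all 3 transcripts were lower at 24h in each line and fraction. The window of Prl2c2 is not analysed here, and matches in the copies are not matches in Prl2c2. Shown are the matches on either strand to the AP-1 site (TGANTCA), the core of the hypoxia response element (ACGTG) and the TATA box (TATAAA), in capitals.
U90926, chr5:92215409-92215658, minus strand: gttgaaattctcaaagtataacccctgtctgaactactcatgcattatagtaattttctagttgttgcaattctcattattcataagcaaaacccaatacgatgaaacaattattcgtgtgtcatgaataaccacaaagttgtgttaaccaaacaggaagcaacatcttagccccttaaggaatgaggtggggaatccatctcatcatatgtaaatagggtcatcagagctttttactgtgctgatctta
Prl2c3, chr13:12800080-12800329, minus strand: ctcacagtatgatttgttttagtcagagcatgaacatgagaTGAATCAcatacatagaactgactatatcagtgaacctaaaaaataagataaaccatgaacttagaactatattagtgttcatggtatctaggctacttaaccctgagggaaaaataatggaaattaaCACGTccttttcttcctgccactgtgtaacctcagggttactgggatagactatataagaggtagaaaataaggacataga
Prl2c5, chr13:13182466-13182715, plus strand: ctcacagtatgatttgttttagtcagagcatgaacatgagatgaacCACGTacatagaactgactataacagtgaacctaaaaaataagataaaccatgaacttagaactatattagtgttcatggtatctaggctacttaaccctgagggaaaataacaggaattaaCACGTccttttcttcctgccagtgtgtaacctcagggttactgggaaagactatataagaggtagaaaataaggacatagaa
The window of Prl2c3 held 1 AP-1 match, 209 bases before the start, and 1 match to the hypoxia core, 81 bases before it. Prl2c5 held 2 matches to the hypoxia core, 204 and 82 bases before the start, and the window of U90926 held none of the 3 motifs. Of all 32851 promoter windows of this length, 6.75% held the AP-1 letters, 16.6% the hypoxia core and 12.4% the TATA box. Prl2c3 and Prl2c5 differed at 8 of 249 aligned positions of these windows.

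Prl2c2 was an abundant transcript in both lines until 24h of hypoxia. In the cytoplasm of C166, whose values chose the gene, it had 5287, 6003 and 5390 counts in normoxia, 5533, 5410 and 3286 at 2h, and 798, 585 and 531 at 24h. The group means were 227 ± 3.28 CPM in normoxia, 193 ± 25.5 CPM at 2h and 24.7 ± 4.81 CPM at 24h (SD, n = 3 each), so 10.9% of the normoxia level was left at 24h and the fitted log2 fold change was -3.20. U90926 had 2802, 4034 and 2936 counts in normoxia, 2937, 2798 and 1993 at 2h, and 480, 288 and 393 at 24h in the same libraries. Its means were 132 ± 16.8, 106 ± 7.30 and 14.998 ± 3.47 CPM (SD, n = 3 each), with 11.3% left at 24h and a fitted log2 fold change of -3.14. By this value they ranked 3rd and 4th among the 7499 genes above the median level. The contractile gene Actg2 (-4.07) and Serpinf1, which encodes an angiogenesis inhibitor (-3.31), ranked above them, and the contractile gene Tagln (-2.83) came next below. Among all 14998 genes tested they ranked 61st and 65th. Sprr2h (-3.24) and Als2cr12 (-3.18) were next to Prl2c2, and Gm23297 (-3.17) and Gm15411 (-3.09) were next to U90926. Per kilobase of main transcript, the level in normoxia was 270 CPM for Prl2c2 and 252 CPM for U90926.

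**Figure D1:**
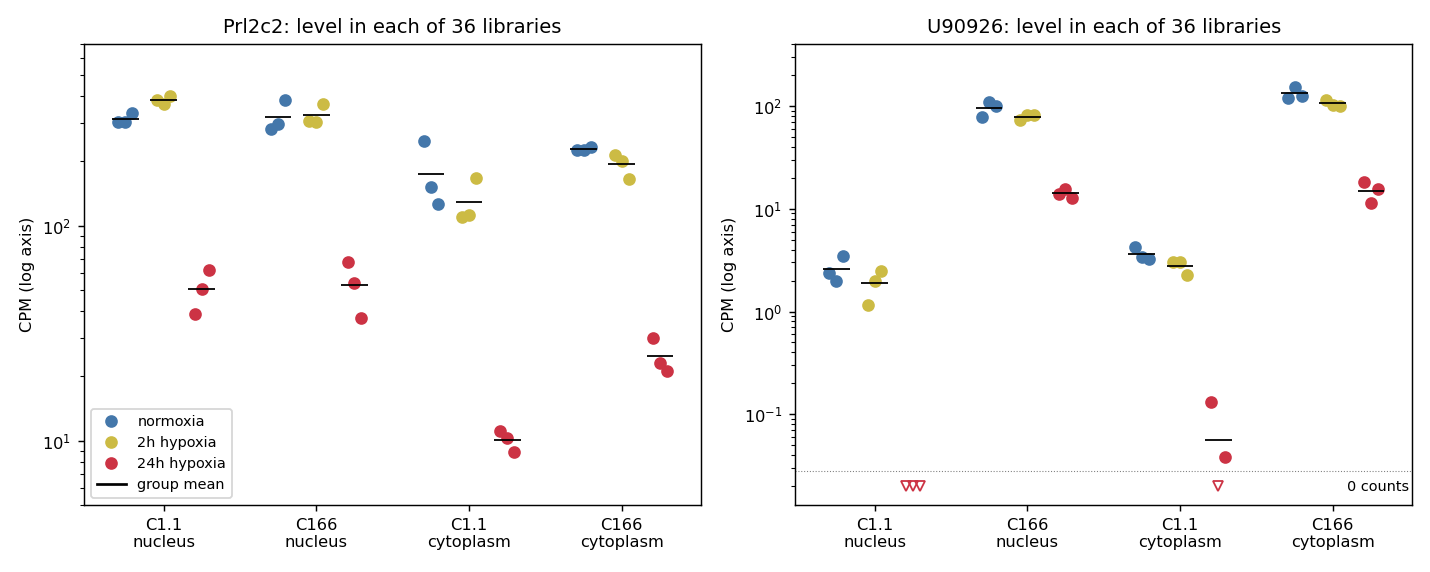
Level of Prl2c2 (left) and U90926 (right) in each of the 36 libraries, in CPM on a log axis, by line, fraction and time. Points are libraries, black lines are means of 3, and open triangles mark libraries with 0 counts. At 24h each library lies below all normoxia libraries of its line and fraction, and the C1.1 libraries of U90926 lie far below those of C166 at each time.

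In the cytoplasm of C1.1, which the choice of the genes did not use, both transcripts fell at 24h. Prl2c2 had 6963, 4004 and 3769 counts in normoxia, 2857, 2936 and 4251 at 2h, and 251, 250 and 232 at 24h. Its means were 175 ± 63.6 CPM in normoxia, 130 ± 32.6 CPM at 2h and 10.0 ± 1.13 CPM at 24h (SD, n = 3 each). The 24h libraries lay far below the others, and the 2h and normoxia libraries overlapped. The log2 fold change at 24h was -4.12 (standard error 0.23, adjusted p = 4.18e-11 by edgeR's quasi-likelihood test with Benjamini-Hochberg adjustment, as for all adjusted p-values here unless DESeq2 is named), a level 17.4-fold lower than in normoxia, which ranked 20th from the lowest of all genes tested. At 24h 36.2% of the 14998 genes tested were called in this comparison, at an adjusted p under 0.05, and 18.1% were called lower.

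U90926 was a rare transcript in C1.1 before hypoxia and was nearly gone after it. In the cytoplasm it had 119, 89 and 96 counts in normoxia, 80, 80 and 57 at 2h, and 3, 0 and 1 at 24h. These are 3.60 ± 0.540 CPM, 2.79 ± 0.473 CPM and 0.0567 ± 0.0679 CPM (SD, n = 3 each). The fitted log2 fold change at 24h was -5.92 (standard error 0.42, adjusted p = 1.22e-09), and -7.20 without replicate 1 at 24h, which held 3 of the 4 counts. From the 4 counts at 24h against 304 in normoxia, summed over the libraries, U90926 was 66.01-fold lower at 24h, with an exact 95% interval of 25.5 to 244 for counting error only.

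Prl2c2 fell in the nuclei of both lines at 24h. In C1.1 nuclei Prl2c2 had 5803, 5006 and 6782 counts in normoxia, 7244, 6472 and 6456 at 2h, and 698, 1053 and 1231 at 24h. In C166 nuclei it had 4759, 5217 and 7083 counts in normoxia, 5915, 7389 and 6703 at 2h, and 1299, 1300 and 815 at 24h. At 24h no library of either line reached the level of any normoxia library of that line. In C1.1 nuclei the mean was 50.5 ± 11.6 CPM at 24h and 314 ± 17.5 CPM in normoxia, a log2 fold change of -2.63 (standard error 0.16, adjusted p = 1.55e-12). In C166 nuclei it was 53.0 ± 15.3 CPM at 24h and 321 ± 54.4 CPM in normoxia (SD, n = 3 each), a log2 fold change of -2.60 (standard error 0.16, adjusted p = 1.75e-12). The responses of the lines differed by -0.03 (C1.1 minus C166, standard error 0.22, adjusted p = 0.968), which does not show that they are equal. The backgrounds were 42.8% of 15735 genes called in C1.1 nuclei, 37.6% in C166 nuclei and 4.75% for the difference of the responses.

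U90926 also fell in the nuclei. In C1.1 nuclei it had 45, 33 and 70 counts in normoxia, 22, 35 and 40 at 2h, and no count in any library at 24h. In C166 nuclei it had 1326, 1897 and 1848 counts in normoxia, 1406, 1987 and 1479 at 2h, and 268, 371 and 281 at 24h. C166 nuclei thus kept 14.7% of the normoxia level at 24h (14.1 ± 1.30 against 95.7 ± 15.5 CPM, SD, n = 3 each), with a log2 fold change of -2.76 (standard error 0.16, adjusted p = 1.85e-12). In C1.1 nuclei the fall was called as well (adjusted p = 8.08e-10). With 0 counts at 24h against 148 in normoxia, U90926 was 51.7-fold lower, taking a floor of 3 counts over the group. The exact 95% interval, for counting error only, starts at 41.5-fold lower. The fitted value there is -8.67, which depends on how the model treats zeros and is no measure of size. The response differed between the lines (adjusted p = 0.00139): U90926 was 51.7-fold lower by that floor at 24h in C1.1 nuclei and 6.79-fold lower in C166 nuclei.

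**Figure D2:**
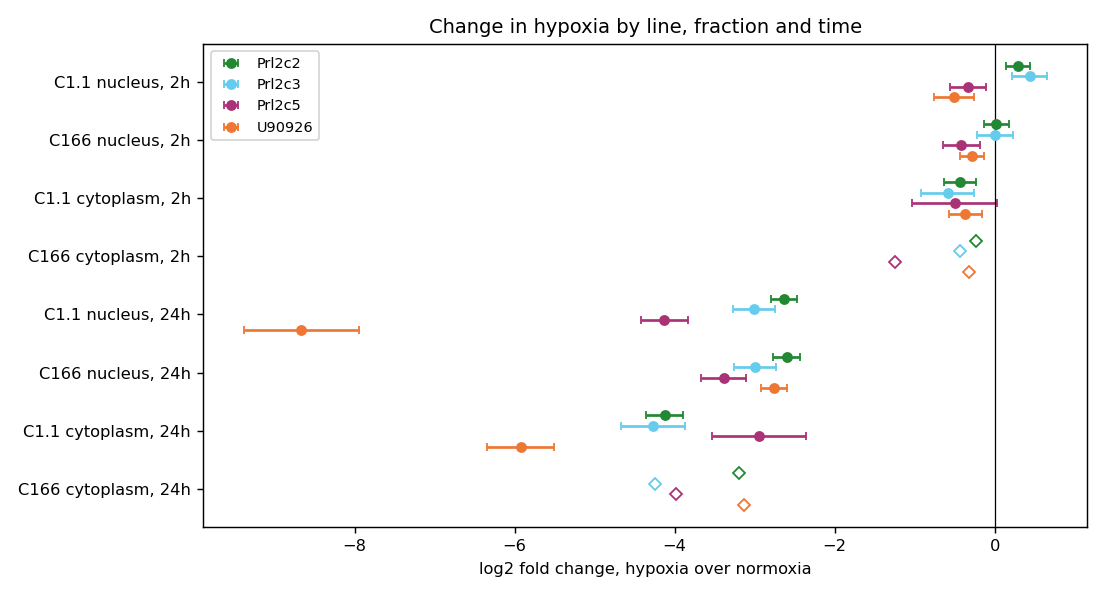
Log2 fold change of hypoxia over normoxia for Prl2c2, U90926 and the copies Prl2c3 and Prl2c5, by line, fraction and time. Filled points are tested values with their standard error, and open diamonds are values of C166 cytoplasm, the libraries that chose the genes, with no error or test. The 2h values lie between -1.25 and 0.44 and the 24h values between -8.67 and -2.60, and the lowest, U90926 in C1.1 nuclei, rests on 0 counts at 24h.

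At 2h neither gene passed the test in any tested comparison. Prl2c2 changed by -0.43 (standard error 0.20, adjusted p = 0.321) in C1.1 cytoplasm, by 0.29 (standard error 0.15, adjusted p = 0.377) in C1.1 nuclei and by 0.02 (standard error 0.15, adjusted p = 0.993) in C166 nuclei, on the log2 scale. U90926 changed by -0.37 (standard error 0.21, adjusted p = 0.486), -0.51 (standard error 0.25, adjusted p = 0.343) and -0.28 (standard error 0.15, adjusted p = 0.535) in the same comparisons, so its 3 values had 1 direction and none was called. The backgrounds were 1.95%, 3.29% and 2.3% of genes called. Prl2c2 was called at 2h under some settings, namely in C1.1 cytoplasm without the filter on low counts (adjusted p = 0.00625) and in C1.1 nuclei when only the compared libraries were fitted (adjusted p = 0.0360).

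U90926 was far lower in C1.1 than in C166 before hypoxia, and no such difference was called for Prl2c2. In normoxic nuclei U90926 stood at 2.60 ± 0.754 CPM in C1.1 and 95.7 ± 15.5 CPM in C166 (SD, n = 3 each), with 33 to 70 counts a library against 1326 to 1897. It was 36.3-fold lower in C1.1, a log2 fold change of -5.18 (standard error 0.20, adjusted p = 4.18e-16), and ranked 155th from the lowest of all 15735 genes tested. Prl2c2 stood at 314 CPM in C1.1 and 321 CPM in C166 in the same libraries, a difference of -0.03 (standard error 0.15, adjusted p = 0.878). In this comparison 40% of genes were called. In normoxic cytoplasm, where C166 values chose the genes, U90926 had 304 counts over the C1.1 libraries and 9772 over those of C166, a fitted difference of -5.20, and the difference for Prl2c2 was -0.38. The C1.1 libraries in normoxia held less U90926 than the C166 libraries after 24h of hypoxia: 3.21 to 4.22 CPM in C1.1 cytoplasm in normoxia against 11.3 to 18.1 CPM in C166 cytoplasm at 24h, and 2.00 to 3.45 CPM in C1.1 nuclei in normoxia against 12.8 to 15.4 CPM in C166 nuclei at 24h. Peg10, the one trophoblast marker well above 0, also differed between the lines, at 0.0955 CPM in normoxic C1.1 nuclei and 30.3 CPM in C166 nuclei, and its part in the result was not tested.

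Within the cytoplasm the order of levels for Prl2c2 was C166 in normoxia, C166 at 2h, C1.1 in normoxia, C1.1 at 2h, C166 at 24h and C1.1 at 24h. Neighbours from C166 at 2h to C1.1 at 2h overlapped in range, and the other neighbours did not. C1.1 in normoxia, at 126 to 247 CPM, also spanned the range of C166 in normoxia, 225 to 231 CPM. For U90926 no neighbours overlapped in the cytoplasm, and the order was the 3 C166 groups from normoxia to 24h, followed by the 3 groups of C1.1 in the same sequence. In the nucleus U90926 had the same order, with overlap between normoxia and 2h in each line. Prl2c2 had its highest nuclear mean in C1.1 at 2h (383 ± 15.7 CPM, SD, n = 3), with a range of 368 to 399 CPM. The highest library of C166 nuclei in normoxia, at 383 CPM, lay within that range. The next 3 nuclear groups overlapped at means of 314 to 326 CPM, and both 24h groups overlapped at the bottom.

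Between the fractions of C1.1, the fitted differences of Prl2c2 and U90926 had opposite signs. In normoxia the log2 difference of nucleus over cytoplasm was 0.72 for Prl2c2 (standard error 0.19, adjusted p = 0.00176) and -0.58 for U90926 (standard error 0.23, adjusted p = 0.0302), where 57.6% of 16682 genes were called. The call of U90926 was lost with DESeq2 (adjusted p = 0.129), with RLE (adjusted p = 0.166) and upper-quartile factors (adjusted p = 0.158), when only the compared libraries were fitted (adjusted p = 0.0660), and without replicate 1 of C1.1 cytoplasm (adjusted p = 0.1503) or replicate 1 (adjusted p = 0.0608) or 2 (adjusted p = 0.0864) of C1.1 nucleus. In C166, as a description, the differences were 0.40 for Prl2c2 and -0.57 for U90926. The 24h loss of Prl2c2 in C1.1 was smaller in nuclei than in cytoplasm by 1.499 on the log2 scale (standard error 0.29, adjusted p = 0.000515), in a comparison that called 11% of genes. For U90926 this difference was -2.88 (standard error 1.71, adjusted p = 0.349) and did not pass, with 0 counts in the nuclei and 4 in the cytoplasm at 24h, and it was -1.63 without replicate 1 of C1.1 cytoplasm at 24h. These are ratios of shares of each library and not amounts per cell.

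The other proliferin copies that could be tested, Prl2c3 and Prl2c5, also fell at 24h. Prl2c3 had 44 counts over the 24h libraries and 984 over the normoxia libraries of C1.1 cytoplasm, a log2 fold change of -4.27 (standard error 0.40, adjusted p = 6.38e-08). Prl2c5 had 46 and 410 counts there, a log2 fold change of -2.95 (standard error 0.59, adjusted p = 0.000458), and -3.57 without replicate 2 at 24h. In nuclei the values at 24h were -3.01 in C1.1 and -3.00 in C166 for Prl2c3, and -4.13 in C1.1 and -3.39 in C166 for Prl2c5, all called. In normoxic nuclei Prl2c5 was higher in C1.1 than in C166 by 0.64 on the log2 scale (standard error 0.23, adjusted p = 0.0268), with 721 counts in C1.1 and 439 in C166. This call was lost without replicate 1 (adjusted p = 0.0714) or 3 (adjusted p = 0.0667) of C1.1 nuclei, or replicate 1 (adjusted p = 0.170) or 2 (adjusted p = 0.0747) of C166 nuclei, all in normoxia. Prl2c2 took 89.1% to 95.6% of the counts of the 4 proliferin rows in each of the 12 groups. Prl2c1 had between 0 and 43 counts a group, and 41 of the 43 in C166 cytoplasm in normoxia came from replicate 1, the library with the fewest genes detected. Since most read-length words of Prl2c2 occur in another copy and the handling of reads that match several places is not given in the sources used here, the division of counts among the copies is uncertain. With the 4 rows summed into 1 before the fit, the log2 fold change at 24h was -4.09 in C1.1 cytoplasm, -2.69 in C1.1 nuclei and -2.63 in C166 nuclei.

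**Figure D3:**
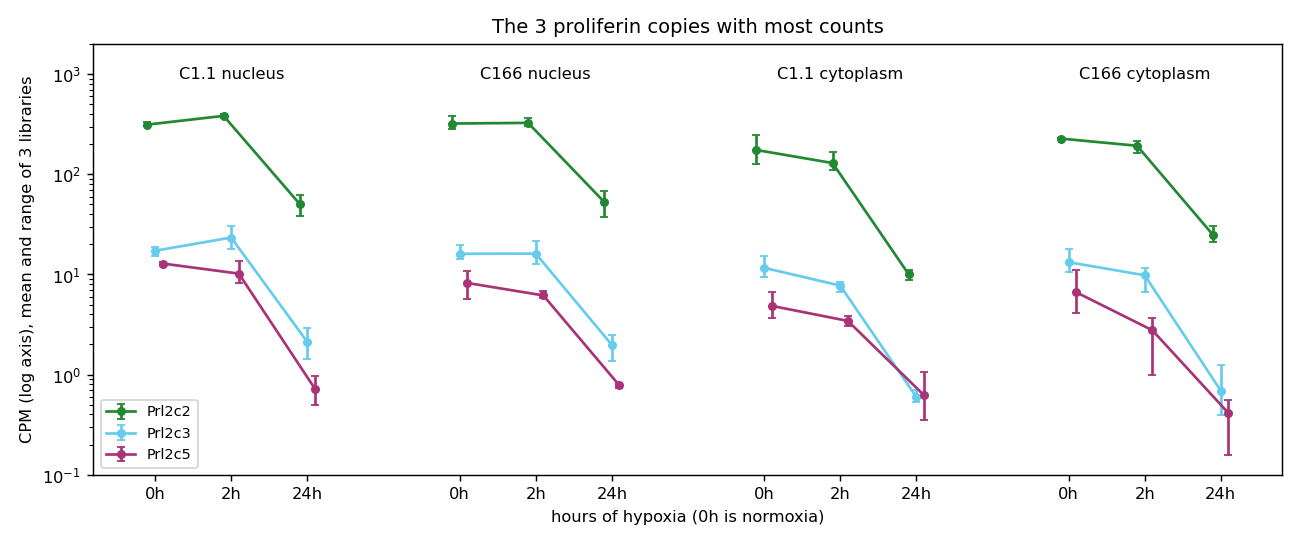
CPM on a log axis of Prl2c2, Prl2c3 and Prl2c5 by hours of hypoxia in each line and fraction. Points are means and bars the range of 3 libraries. Prl2c2 lies above the other copies in each group, and all 3 are lowest at 24h.

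Outside the proliferins, 12 of the 22 other members of the prolactin family on the list had a row, and they added up to at most 3.59 CPM in any library. Only Prl8a1 passed the filter on low counts in the cytoplasm, with a log2 fold change of -0.75 in C1.1 at 24h that was not called. In nuclei at 24h Prl7d1, another placental hormone gene, fell by 3.53 in C1.1 (adjusted p = 0.00516) and by 3.01 in C166 (adjusted p = 0.0249) on the log2 scale, with 5 counts at 24h against 59 in normoxia over the C1.1 libraries and 4 against 28 over those of C166. Of the receptors, Igf2r, the receptor of proliferin, was not called in C1.1 cytoplasm at 24h (0.21, adjusted p = 0.408) and stood at 64.0 CPM at 24h and 55.5 CPM in normoxia. M6pr, the smaller mannose-6-phosphate receptor, fell to 141 CPM at 24h against 228 CPM in normoxia, a log2 fold change of -0.69 (adjusted p = 1.33e-05). The prolactin receptor gene Prlr was at 0 in all groups but C1.1 cytoplasm at 24h and C1.1 nuclei at 2h, with 2 and 4 counts. In C1.1 nuclei at 24h Igf2r (0.30, adjusted p = 0.00130) and M6pr (0.30, adjusted p = 0.00415) rose, and in C166 nuclei neither was called. At 24h 36.2% of all genes were called in C1.1 cytoplasm, 42.8% in C1.1 nuclei and 37.6% in C166 nuclei.

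Of 12 tested AP-1 subunits and partners, 4 rose and 1 fell in C1.1 cytoplasm at 24h, where 36.2% of all genes tested were called. Their median log2 fold change was 0.28, against 0.03 over all genes tested. Jund rose by 2.59 (adjusted p = 9.69e-07), Maff by 1.28 (adjusted p = 7.98e-06), Fosl2 by 0.92 (adjusted p = 2.59e-08) and Atf2 by 0.32 (adjusted p = 0.00252). In the nuclei 3 of 11 rose and 3 fell in C1.1, where 42.8% of all genes were called, and 3 rose and 2 fell in C166, where 37.6% were. Of 7 tested genes of the glucocorticoid receptor and its targets, 4 rose and 1 fell in C1.1 cytoplasm (median 0.47), against the same 36.2% of all genes called. Nr3c1, the receptor, rose by 0.43 (adjusted p = 3.38e-05), Nr3c2, the mineralocorticoid receptor, by 1.23 (adjusted p = 6.32e-05) and the target Klf9 by 0.53 (adjusted p = 0.000998), while the target Sgk1 fell by 0.66 (adjusted p = 6.49e-06). In the nuclei 3 of 7 rose and 1 fell in C1.1 (42.8% of all genes called), and 1 rose and 2 fell in C166 (37.6%).

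For U90926 the lists were NF-kB factors and their targets, which act in macrophage activation, and genes of adipocyte differentiation. Of 13 tested NF-kB genes, 9 rose and 1 fell in C1.1 cytoplasm at 24h (median 0.43), 6 rose and 2 fell in C1.1 nuclei, and none rose and 6 fell in C166 nuclei. The shares of all genes called in these comparisons were 36.2%, 42.8% and 37.6%. In C1.1 cytoplasm Tnfaip3, an inhibitor of the pathway, rose by 1.47 (adjusted p = 2.82e-06), Cxcl1 by 1.098 (adjusted p = 0.00448) and Vcam1 by 0.66 (adjusted p = 0.00363), and Ptgs2 fell by 1.09 (adjusted p = 8.17e-05). Of 6 tested adipocyte genes 1 rose and 1 fell there, where 36.2% of all genes were called: Cebpd rose by 2.28 (adjusted p = 6.84e-07) and Lpl fell by 0.87 (adjusted p = 0.0107). Lpl was not called without replicate 1 of C1.1 cytoplasm in normoxia (adjusted p = 0.0634) or replicate 3 at 24h (adjusted p = 0.0516), and without replicate 3 of C166 nuclei at 24h 3 NF-kB genes were called there. In normoxic nuclei 8 of the 13 NF-kB genes and 4 of the 6 adipocyte genes were lower in C1.1 than in C166, with medians of -0.47 and -1.82, against 21.2% of all genes called lower. The hypoxia genes Bnip3, Pdk1, Ndrg1 and Vegfa, in the opposite direction, rose by 4.01, 4.35, 4.94 and 0.91 in C1.1 cytoplasm at 24h, and all 6 genes of that list were called in each of the tested 24h comparisons. Among the markers of smooth muscle and mesenchyme, Tagln fell by 2.83, Acta2 by 1.56 and Cnn1 by 0.84 in C1.1 cytoplasm at 24h. Pdgfrb rose there by 1.04 (all on the log2 scale). The 8 markers together stood there at 1028 to 1206 CPM at 24h and 1698 to 1907 CPM in normoxia. In C1.1 nuclei their sum was higher at 24h, at 4177 to 5119 CPM against 3725 to 3901 CPM in normoxia. In C166 nuclei it was 6242 to 8686 CPM at 24h and 8520 to 9555 CPM in normoxia. In C166 cytoplasm it was 1665 to 1975 CPM at 24h and 4877 to 6340 CPM in normoxia. The part of these changes in the fall of Prl2c2 and U90926 was not tested.

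The genes next to each member on the chromosome showed smaller changes at 24h, apart from the proliferin copies. Beside U90926, Uso1 (7094 bases away), Ppef2, Naaa and Sdad1 had counts enough to test. At 24h in C1.1 nuclei only Sdad1, a nucleolar protein gene, was called (-0.61, adjusted p = 2.55e-06), and in C166 nuclei Sdad1 (-0.54) and Naaa (-0.65) were. The shares of all genes called at 24h were 42.8% in C1.1 nuclei, 37.6% in C166 nuclei and 36.2% in C1.1 cytoplasm. In C1.1 cytoplasm Sdad1 (-0.36, adjusted p = 0.00237) was called, and Uso1 (-0.32, adjusted p = 0.0637), Ppef2 and Naaa were not. Uso1 was called there under several alternatives, such as the replicate block (adjusted p = 0.0440), and Naaa without replicate 2 at 24h (adjusted p = 0.0492). In normoxic nuclei Ppef2 (-2.23, standard error 0.60, adjusted p = 0.00403) and Naaa (-2.31, standard error 0.12, adjusted p = 2.42e-14), the 2 tested genes next above U90926, were lower in C1.1 than in C166 as well, Uso1 was higher (0.46, adjusted p = 0.000260) and Sdad1 was not called (-0.18, adjusted p = 0.104). In this comparison 40% of all genes were called and 21.2% were called lower. The untested rows Gm25290 and Gm15710 had 78 and 27 counts in all 36 libraries. Beside Prl2c2 and beyond the copies lies Gpr137b, a lysosomal membrane protein gene 352236 bases away. It fell by 0.85 in C1.1 cytoplasm, 0.50 in C1.1 nuclei and 0.64 in C166 nuclei. Its pseudogene Gpr137b-ps and the pseudogenes Gm2399 and Gm2423 were not called at 24h where they were tested. Gm2423 in C1.1 cytoplasm (-1.41, adjusted p = 0.165) was called without replicate 1 of C166 cytoplasm in normoxia (adjusted p = 0.00341). With only the compared libraries fitted, Gm2423 in C1.1 cytoplasm (adjusted p = 0.00691) and Gpr137b-ps in C1.1 nuclei (adjusted p = 0.0376) were called. In normoxic nuclei Gpr137b-ps (0.79, adjusted p = 0.015) and Gpr137b (0.36, adjusted p = 0.0389) were higher in C1.1 than in C166. Gm2423 was lower there (-1.74, adjusted p = 0.0234), and Gm2399 was not called (-0.66, adjusted p = 0.523). Each of these calls was lost in some fits with 1 library left out.

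**Figure D4:**
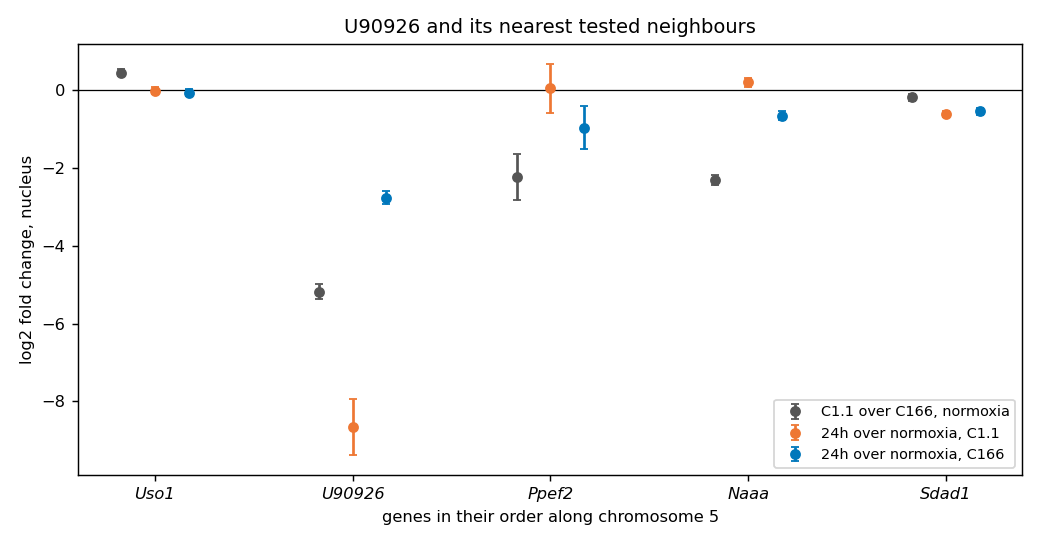
Log2 fold change in nuclei, with standard error, of U90926 and its 4 nearest tested neighbours, in their order along chromosome 5. Grey points compare C1.1 with C166 in normoxia, orange and blue points 24h with normoxia in C1.1 and in C166. U90926 is lowest in each comparison, its value at 24h in C1.1 rests on 0 counts, and Ppef2 and Naaa are also lower in C1.1 than in C166.

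Over the 12 group means of log2 CPM, the levels of the members correlated at 0.54 (Pearson), at 0.82 over the 6 groups of C1.1 and at 0.92 over the 6 groups of C166, points that share libraries and line. The values over C166 and over all groups include the C166 cytoplasm groups that chose both genes for their fall. That choice by itself favours a positive correlation there, so these values are not independent of the choice. Among the 8341 genes above the median level, those most like Prl2c2 over the 12 groups were Gyk (0.98), Hells (0.98), Wdr12 (0.98), G3bp2 (0.97) and Nsun5 (0.97). Those most like U90926 were Ciapin1 (0.99), Gss (0.98), Npnt (0.98), Ifrd1 (0.98) and Pbx3 (0.97). The group means of Ciapin1 lay between 4.52 and 6.24 in log2 CPM.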

How the data were processed

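RNA of nucleus and cytoplasm was measured in 36 libraries. The authors made stranded libraries without ribosomal RNA, sequenced both ends for 50 bases, aligned with Bowtie2 2.2.2 and TopHat2 2.0.11 to GRCm38 with the genes of Ensembl 81, and deposited raw counts for each gene symbol as whole numbers, not normalized. The submitters' processing notes also name featureCounts, Cufflinks 2.2.1, Cuffdiff and edgeR, and the use of strand and of reads with several matches in counting is not given in the sources used here. The deposited table also holds the authors' normalized values, fold changes and p-values, which were not used.

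R 4.3.3, edgeR 4.0.16 and limma 3.58.1 were used. The 18 libraries of each fraction were fitted together (6 groups), and all 36 for nucleus against cytoplasm, with filterByExpr, TMM factors, the quasi-likelihood F-test and Benjamini-Hochberg adjustment over all genes tested (14998, 15735 and 16682). Both members passed the filter in each fit. CPM are scaled with TMM within a fraction. Calls needed an adjusted p below 0.05. Standard errors were taken as the fold change (log2) divided by the square root of F. A log2 CPM has a prior count of 2. The chi-square per degree of freedom between replicates was 3.36 to 57.7, above sampling noise in every pair. Intervals and floors (3 counts) cover counting error only. No pairing by replicate number was detected: the correlation of deviations between same-numbered libraries was at most 0.0868. This does not show that same-numbered libraries are unpaired. The fit was tested on simulated data. Named genes were the members, the proliferin copies, the 5 genes most correlated with each member over group means, the genes next to each in rank, up to 4 called genes a list with the smallest p in C1.1 cytoplasm at 24h, and the 3 nearest rows with counts on each side. Actg2, Serpinf1, Prl7d1, Prl8a1, Igf2r, Prlr and Peg10 were named after their values were seen. The members and lists were chosen with earlier results of these data known. Alternatives were DESeq2 1.42.0, RLE and upper-quartile factors, no filter, only the compared libraries, the replicate block, each library left out, the proliferin rows summed and, added after seeing the data, the cytoplasm fit without replicate 1 of C166 in normoxia.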

Additional observations from a re-analysis of the deposited data

Results flagged for a closer look

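The response to 24h of hypoxia differed by a test of the difference itself for several genes, given here as log2 values with no explanation. In nuclei, C1.1 minus C166, the difference was -5.9 for U90926 (adjusted p = 0.00139), from 0 counts in C1.1 at 24h, and 0.85 for its neighbour Naaa (adjusted p = 0.00191). It was 1.75 for Vcam1, 1.18 for Tnfaip3, 1.12 for Cebpd and 0.57 for Nr3c1, 1.27 for Acta2 and 1.89 for Cnn1, and -0.73 for Bnip3 and -0.76 for Vegfa. In C1.1, nucleus minus cytoplasm, it was 1.5 for Prl2c2 (adjusted p = 0.000515), 1 for M6pr, 0.71 for Vcam1, 0.54 for Bnip3 and -0.65 for Fosl2. All adjusted p-values are from the edgeR quasi-likelihood test.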

How the results depend on the processing

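Of 288 tested values of Prl2c2 and U90926 under the alternatives, 279 kept their side of the threshold, 7 lost the call and 2 gained it. A further 16, of C166 cytoplasm at 24h, have no test. No value that was called in either fit changed direction. Some uncalled values changed sign, among them Prl2c2 between the lines in normoxic nuclei, at 0.07 with upper-quartile factors against -0.03. The 7 are the difference of U90926 between C1.1 nucleus and cytoplasm in normoxia, which was -0.37 with RLE factors (adjusted p = 0.166), -0.38 with upper-quartile factors, -0.55 with only the compared libraries and -0.37 with DESeq2, and ran from -0.94 to -0.46 with 1 library left out. The call of Prl2c2 at 2h was gained at -0.43 in C1.1 cytoplasm without the filter and at 0.29 in C1.1 nucleus with only the compared libraries. The cause was not tested. The count of genes called moved over 1.5 times in 28 of 144 refits. At 2h in C1.1 cytoplasm it was 648 without the filter, 1385 with only the compared libraries, 792 with DESeq2, 751 without replicate 1 of C166 cytoplasm in normoxia and as low as 80 with another library left out, against 292. In C166 nucleus at 2h it was 699 with only the compared libraries, 546 with DESeq2 and as low as 193 with 1 library left out, against 362. In C1.1 nucleus at 2h it was 803 with DESeq2 and as low as 228, against 517. For the difference of the nuclear responses it was 1123 with DESeq2 and 416 to 1181 with 1 library left out, against 748, and for nucleus minus cytoplasm 2934 with only the compared libraries, against 1843. With the replicate block the 24h value in C1.1 cytoplasm was -4.10 for Prl2c2 and -5.92 for U90926, 5384 genes were called there, and no call of either member changed. Depth limits U90926 in C1.1 at 24h, where 4 counts in cytoplasm and 0 in nucleus leave the size of the fall uncertain.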
